A study of Homo sapiens with 2 samples.

Results

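Cells that carried transcripts of cell division were looked for among human neurons that had been sorted for a serotonergic reporter. A cell was taken as cycling when at least 3 of 6 proliferation genes (MKI67, TOP2A, CENPF, UBE2C, NUSAP1 and BIRC5) had a UMI and the 5 fibroblast genes COL1A1, COL1A2, COL3A1, DCN and LUM together had fewer than 5. A UMI is a molecular identifier that marks a captured transcript. 87 of 13958 cells met this rule. They were selected on the counts of these 11 genes, so the levels of the 11 genes are a description and not a result.

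Serotonin neurons (SNs) had been differentiated from the human embryonic stem cell line H9 (WA09) up to day 42, and EGFP-positive cells were sorted and profiled with the 10x Genomics 3' kit (v3). WT cells carried a TPH2-EGFP knockin. FKO cells carried the same knockin together with a FOXA2 knockout, placed in a picked clone whose indel shifts the FOXA2 reading frame to an early stop. The EGFP reporter was not measured, since it is not among the counted features, and the purmorphamine dose given to the sequenced cells is not given in the sources used here.

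Each condition had 1 library, and cells cannot stand in for replicate libraries. Differences were therefore not tested and are given without p-values. Bracketed ranges are exact 95% intervals for the counting error, which leaves out variation between cultures. The library labelled WT held 123064653 UMIs in 11052 barcodes and the library labelled FKO 70588747 in 8806, and a barcode counted as a cell when it had 1000 or more UMIs, 500 or more genes and no more than 10% mitochondrial UMIs. 6385 and 7573 cells remained, with medians of 12646 and 7122 UMIs. 21 barcode sequences occurred in both libraries, and 0 of them was a cycling cell in both. FOXA2 transcripts were more frequent in the library labelled FKO (values below). A frameshift need not lower the transcript and counts of 3' ends do not show an indel, so the FOXA2 level does not check the label. SHH or CORIN, genes of the floor plate, had a UMI in 2.60% of non-cycling cells (154 of 5923, WT) and 1.52% (108 of 7097, FKO). The libraries are called by their labels, and every direction between them rests on those labels.

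Dividing cells switch on genes in waves. E2F factors drive the genes of DNA replication as cells enter S phase, and the DREAM and MYBL2-FOXM1 complexes control the genes of G2 and mitosis, often through a short promoter element called the cell cycle homology region (CHR) that lies near CCAAT boxes bound by NF-Y. In the developing hindbrain, SOX2-positive progenitors divide along the ventricle, while SNs have left the cell cycle before they make serotonin. Of the rule genes, MKI67 codes for the Ki-67 protein that coats mitotic chromosomes, TOP2A for the topoisomerase that untangles replicated DNA, CENPF for a kinetochore protein and UBE2C for the ubiquitin-conjugating enzyme of the anaphase-promoting complex. NUSAP1 binds spindle microtubules, and BIRC5 is survivin of the chromosomal passenger complex.

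The promoters of 3 of these genes show the shared elements. Sequences are from RefSeq on GRCh38.p14, run 5′ to 3′ on the strand of the gene, and have the CHR letters TTTGAA and the CCAAT letters of either strand in capitals. MKI67 lies at chr10:128126424-128126673 (minus strand), where 2 CHR matches begin 47 and 29 bases before the start, the second overlapping a CCAAT match. TOP2A lies at chr17:40417951-40418146 (minus strand), the stretch from 250 to 55 bases before the RefSeq start, with 2 CHR matches. CENPF lies at chr1:214602945-214603194 (plus strand), with 3 CCAAT matches and a CHR match that begins at base 41 after the start, beyond the stretch shown.
MKI67: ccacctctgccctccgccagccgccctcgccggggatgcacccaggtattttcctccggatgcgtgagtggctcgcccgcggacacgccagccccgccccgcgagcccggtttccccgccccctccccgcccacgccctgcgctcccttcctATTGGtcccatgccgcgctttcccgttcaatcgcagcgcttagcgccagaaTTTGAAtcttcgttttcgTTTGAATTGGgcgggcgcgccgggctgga
TOP2A: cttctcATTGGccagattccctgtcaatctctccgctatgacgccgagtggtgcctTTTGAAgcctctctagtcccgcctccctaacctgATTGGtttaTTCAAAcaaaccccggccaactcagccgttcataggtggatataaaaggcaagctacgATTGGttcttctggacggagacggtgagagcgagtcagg
CENPF: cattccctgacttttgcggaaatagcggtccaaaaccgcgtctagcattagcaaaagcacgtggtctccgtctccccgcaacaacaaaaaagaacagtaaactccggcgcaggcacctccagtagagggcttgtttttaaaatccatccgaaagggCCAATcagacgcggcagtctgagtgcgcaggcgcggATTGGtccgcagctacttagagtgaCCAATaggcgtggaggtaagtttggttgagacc

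Motifs were searched on both strands in windows from 250 bases before to 50 bases after each RefSeq start, with TTTGGCGC, TTTCGCGC and TTTCCCGC as E2F letters. UBE2C and BIRC5 were without an entry. Of the 4 rule genes with a window, 4 held a CHR match and a CCAAT match, and NUSAP1 alone held E2F letters, 174 bases before its start. Among all 35116 windows, 15.2% held the CHR letters, 34.6% CCAAT and 2.74% E2F letters, and 5.90% held both CHR and CCAAT. Of the 54 windows of the G2/M genes described below, 59.3% held CHR and 5.56% E2F letters, and of the 22 windows of spindle motor and cytokinesis genes 72.7% held CHR. Of the 47 windows of S phase genes the shares were the other way round, 6.38% with CHR and 40.4% with E2F letters. A match is a description of the letters and not a binding site.

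26 of 6385 cells were cycling in the library labelled WT, or 0.407% (0.266% to 0.596%), and 61 of 7573 in the library labelled FKO, or 0.805% (0.617% to 1.03%). When every cell was thinned to 2000 UMIs before the rule was applied, 24 of 6342 (0.378%) and 36 of 7457 (0.483%) met it, with intervals that overlapped. Thinning lowers the collagen UMIs as well as those of the 6 genes, so cells left out for collagen can enter, and 13 and 25 of these were cycling at full depth (0.205% and 0.335% of the cells). Thinned to 5000 UMIs, 0.565% and 0.844% met the rule. Cells that failed the rule by 1 gene, with 2 of the 6, numbered 9 and 30 under the collagen limit and held a median of 2 and 2.5 UMIs of the 6 genes, and the 2 and 12 cycling cells with just 3 of the 6 held 6.5 and 9. The collagen limit left out 23 and 33 cells that had at least 3 of the 6 genes, and 10 and 13 of those had 5 to 9 collagen UMIs, close to the limit. Of the cycling cells, 1 and 9 stood just inside it with 4 collagen UMIs.

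The rule genes had unequal parts in the choice. CENPF was detected in 26 of 26 cycling cells labelled WT and 59 of 61 labelled FKO, at 1046 and 693 CPM (UMIs of a gene per 1000000 UMIs of the summed cells). CENPF was also the gene most often found alone, in 60.2% of the 399 cells labelled WT and 61.9% of the 344 cells labelled FKO that had just 1 of the 6. MKI67 had 304 CPM (24 of 26 cells) and 399 CPM (58 of 61). TOP2A had 744 CPM (22 of 26 cells) and 438 CPM (55 of 61), and BIRC5 had 291 CPM and 152 CPM. UBE2C had 586 CPM in 26 of 26 cells labelled WT but 127 CPM in 33 of 61 labelled FKO, and NUSAP1 65.5 CPM in 16 and 12.1 CPM in 10 cells.

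Cycling cells were larger libraries than the rest. Their median was 20049.5 UMIs (WT) and 11919 (FKO), against 12517 and 7016 in the 5923 and 7097 cells with none of the 6 genes, called non-cycling here. Deeper cells pass a rule on detected genes more easily, and the part of depth in these medians was not tested. The median mitochondrial share was 6.31% and 5.85% against 7.86% and 5.30%. Doublet scores marked 0 of 26 cycling cells labelled WT and 9 of 61 labelled FKO (14.8%), against 10.2% and 7.44% of non-cycling cells.

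Gene levels were compared as log2 ratios of summed CPM, cycling over non-cycling cells within each library, among genes with at least 10 CPM on either side. A gene is called higher or lower past a 2-fold ratio. In the library labelled WT 1368 of 9211 genes were higher (14.9%) and 2020 lower (21.9%), and in the library labelled FKO 1273 of 10647 were higher (12%) and 557 lower (5.23%). The counts for gene lists below are to be read against these shares, and the lists overlap in part. 771 genes were higher and 278 lower in both libraries, and 10 went opposite ways past 2-fold, among 8885 genes compared in both.

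Genes of the mitotic machinery stood highest. All 22 genes of spindle motors and cytokinesis were higher in both libraries, with median log2 ratios of 6.75 (WT) and 5.76 (FKO). TPX2, which nucleates spindle microtubules, had 460 CPM in cycling and 3.08 CPM in non-cycling cells labelled WT, a log2 ratio of 7.22 (6.96 to 7.49), and 298 against 4.47 CPM in cells labelled FKO, a ratio of 6.06 (5.82 to 6.30). ASPM, which focuses spindle poles, stood at 8.04 and 6.12, and KIF11, the motor that pushes the poles apart, at 8.07 and 6.61. Of the 21 kinetochore and spindle checkpoint genes 20 were higher in each library, with medians of 7.12 and 6.13. The checkpoint gene MAD2L1 stood at 5.50 and 4.53 and CENPW, a centromere protein, at 4.69 and 4.09. BUB3, a checkpoint protein that also has roles outside mitosis, was the member not past 2-fold, at 0.42 and 0.31. Members under 10 CPM in non-cycling cells, such as TPX2, were compared only through the cycling cells. Their direction followed from that limit, and the non-cycling cells had been chosen for lacking the 6 rule genes, which also act in mitosis. The counts of these and the other cell cycle lists below, against any non-cycling group, are therefore a description.

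The wider G2/M list followed the same order, with 44 of 48 genes higher for the library labelled WT and 41 of 48 for that labelled FKO, and medians of 6.10 and 4.87. HMGB2, a chromatin protein, had 1027 against 26.2 CPM (WT) and 336 against 21.7 CPM (FKO), log2 ratios of 5.29 (5.15 to 5.43) and 3.95 (3.78 to 4.13). TUBB4B, a beta-tubulin, stood at 2.32 and 1.60. JPT1 and CBX5, abundant in non-cycling cells as well, did not pass 2-fold, with JPT1 at -0.37 and -0.29 and the heterochromatin protein gene CBX5 at 0.26 and -0.07.

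S phase genes were higher in both libraries too, 34 of 40 (WT) and 36 of 43 (FKO), with lower medians of 3.28 and 2.95. TYMS, thymidylate synthase, had 566 against 3.35 CPM (WT) and 149 against 2.35 CPM (FKO), ratios of 7.40 (7.16 to 7.65) and 5.99 (5.65 to 6.33). RRM2, the regulated subunit of ribonucleotide reductase, stood at 10.52 and 7.87, from 10 and 19 UMIs in all non-cycling cells. PCNA, the replication clamp, was detected in non-cycling cells at 19.2 and 12.5 CPM and stood at 2.56 (2.16 to 2.94) and 2.54 (2.17 to 2.89). NASP, a histone chaperone, stood at 1.95 and 1.19, and USP1, a deubiquitinase of DNA repair, at 2.63 and 1.58. Of the genes for replication licensing and DNA synthesis, 27 of 27 were higher for the library labelled WT and 24 of 26 for that labelled FKO.

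The regulators of the cycle were less uniform. Of the cyclins and cyclin-dependent kinases, 9 of 11 (WT) and 9 of 12 (FKO) were higher. CDK1, the mitotic kinase, stood at 9.01 (8.46 to 9.59) and 6.95 (6.40 to 7.52), and CCNB1, its cyclin partner, at 6.24 and 5.29. CCND1, the G1 cyclin, rose from 28.0 to 252 CPM (WT) and from 26.5 to 281 CPM (FKO), ratios of 3.17 and 3.41. Among E2F, RB and DREAM regulators 9 of 11 and 8 of 13 were higher, with MYBL2 at 10.39 and 7.74, FOXM1 at 8.56 and 6.19, E2F1 at 6.01 and 5.31, and the retinoblastoma gene RB1 itself at 1.41 and 1.08.

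Inhibitors of cyclin-dependent kinases fell on both sides. CDKN3, a phosphatase that peaks in mitosis, stood at 5.45 and 4.39. CDKN1C, the inhibitor p57 of cells that leave the cycle, was lower in the library labelled WT, at 92.5 against 372 CPM (-2.01, -2.45 to -1.60), but near level in the library labelled FKO, at 499 against 608 CPM (-0.29, -0.42 to -0.16). CDKN2D stood at -1.21 and -0.58, and CDKN1B at 0.64 and 0.27, within 2-fold in both libraries.

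Chromatin packaging genes were higher in 16 of 18 (WT) and 15 of 18 (FKO). H4C3, a replication-dependent histone H4 gene, reached 5165 CPM against 485 (WT) and 1239 against 228 (FKO), ratios of 3.41 and 2.44, uncertain because the H4 genes are close copies of each other. H2AZ1, a histone variant, stood at 2.39 and 1.80, and the high mobility group gene HMGB1 at 2.07 and 1.27. EZH2, the methyltransferase of Polycomb, stood at 2.48 (WT) and 0.99 (FKO), the latter just under 2-fold.

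**Figure D1:**
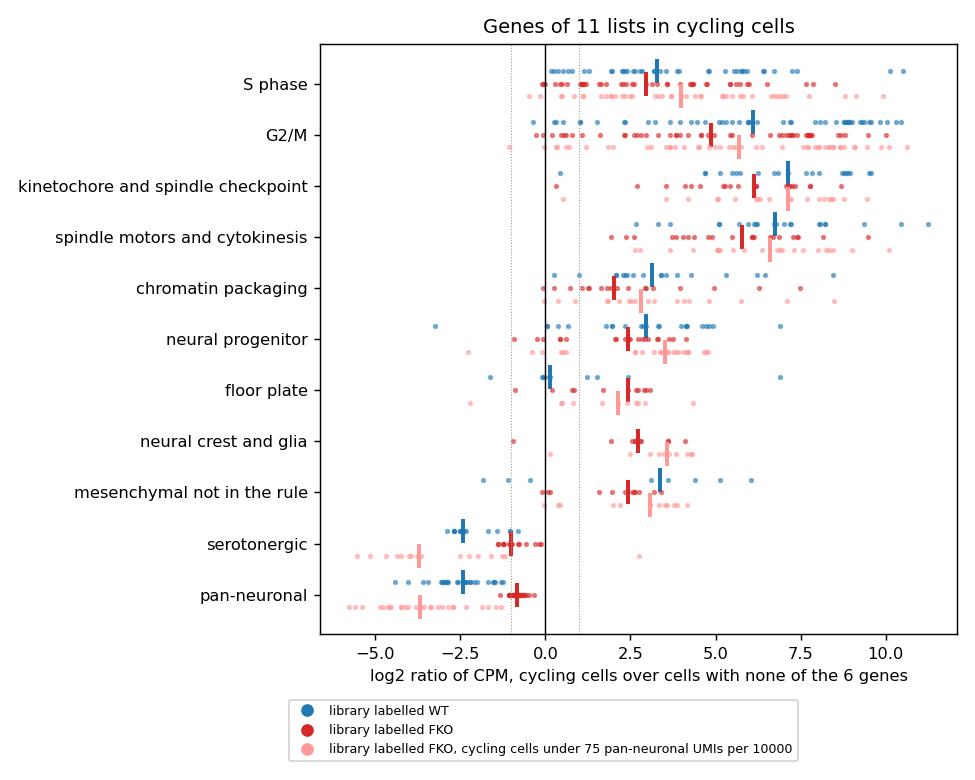
Log2 ratio of CPM, cycling over non-cycling cells, for each compared gene (points) of 11 lists, with the list median as a bar, for the library labelled WT, the library labelled FKO, and the cycling cells labelled FKO that had under 75 pan-neuronal UMIs per 10000; dotted lines mark 2-fold. Kinetochore medians lay at 7.12 and 6.13 in the libraries labelled WT and FKO, and pan-neuronal medians at -2.42 and -0.84.

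Neural progenitor genes accompanied the cell cycle genes. 18 of 23 were higher and 1 lower for the library labelled WT (median 2.95), and 16 of 22 were higher for that labelled FKO (median 2.43). VIM, the intermediate filament of radial glia, had 5749 against 578 CPM (WT) and 3422 against 820 CPM (FKO), ratios of 3.31 (3.26 to 3.37) and 2.06 (2.01 to 2.11). SOX2, the transcription factor of neural progenitors, had 353 against 102 CPM and 319 against 77.7 CPM, ratios of 1.79 (1.57 to 2.0) and 2.04 (1.87 to 2.2). PTN, a secreted growth factor of radial glia, stood at 3.97 and 2.43, and NES, nestin, at 2.34 and 2.85. The member against the rest was LIN28B, an RNA-binding protein, with 2 UMIs in cycling cells labelled WT (-3.25, -6.30 to -1.40) and -0.94 in those labelled FKO.

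At full depth a SOX2 UMI was found in 25 of 26 cycling cells labelled WT (96.2%) and 52 of 61 labelled FKO (85.2%), against 41.2% and 23.5% of non-cycling cells. Thinned to 2000 UMIs these shares were 46.2% (26.6% to 66.6%) and 45.8% (32.7% to 59.2%), against 16.0% and 10.5%. In non-cycling cells with at least 20 collagen UMIs, a type that was not meant to be sorted, the thinned share was 30% (WT) and 8.54% (FKO).

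Of the regional transcription factors and hedgehog genes of the ventral hindbrain, 6 of 7 were higher and 1 lower for the library labelled WT, and 4 of 8 were higher for that labelled FKO. NKX2-2, which marks serotonergic progenitors, stood at 1.65 (0.80 to 2.38) and 1.21 (0.49 to 1.85). The ratio for cells labelled FKO was -0.078 when cells were thinned to 2000 UMIs and -0.37 with at most 5% mitochondrial UMIs. PTCH1, the hedgehog receptor, stood at 1.77 and 0.38. HHIP, a hedgehog-binding protein, stood at 6.91 (6.15 to 7.65) in the library labelled WT, with 29 UMIs, and had 8 UMIs in cycling cells labelled FKO. IRX3, lower in the library labelled WT at -2.69, rested on 2 UMIs.

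Among Notch ligands and neurogenic factors 6 of 10 were higher and 2 lower (WT), and 3 of 11 higher (FKO). HES6, which promotes neuronal differentiation, stood at 2.16 (1.98 to 2.34) and 0.90 (0.71 to 1.08). DLL3, a Notch ligand of newborn neurons, stood at -1.24 and -0.53, and GADD45G at 1.69 (1.23 to 2.11) and -0.14 (-0.82 to 0.46). GADD45G stood at -1.76 among the 5 cycling cells labelled WT that had at most 5% mitochondrial UMIs.

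FOXA2, the floor plate factor that the knockout targets, had 11 UMIs or 21.2 CPM in cycling against 3.9 CPM in non-cycling cells labelled WT, a ratio of 2.44 (1.42 to 3.30). In the library labelled FKO it had 107 UMIs or 108 CPM against 20.1 CPM, a ratio of 2.43 (2.13 to 2.71). A FOXA2 UMI was present in 4 of 26 and 15 of 61 cycling cells, and 1 and 9 cells had at least 5. Of the floor plate list, 4 of 9 genes were higher and 1 lower for the library labelled WT, and 7 of 11 were higher for that labelled FKO, with medians of 0.15 and 2.43. Members under 10 CPM in non-cycling cells, such as FOXA2 in the library labelled WT, entered only through cycling cells. Their direction followed from that limit. The WT count was 10 without the collagen limit and 2 with non-cycling cells drawn to match UMIs, and the FKO count 9 and 7. SPON1, F-spondin, had 23.1 against 24.5 CPM (WT, -0.09) and 174 against 23.3 CPM (FKO, 2.90). SULF1, a sulfatase, stood at 1.51 and 2.66, and SHH, the morphogen of the floor plate, at 3.07 in the library labelled FKO, with 5 UMIs in cycling cells labelled WT. FOXA2 together with SHH or CORIN was seen in 2 of 26 and 6 of 61 cells, and SOX2 without FOXA2 in 21 and 38.

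Serotonergic and neuronal genes moved the other way. Of the serotonergic genes 13 of 14 were lower for the library labelled WT (median -2.43) and 8 of 15 for that labelled FKO (median -1.0), and 0 were higher. The FKO count was 1 with at least 2 of the 6 genes required, 5 with at least 4, and 2 with at most 5% mitochondrial UMIs. TPH2, which makes the enzyme of serotonin synthesis and carries the sorted reporter, had 14 UMIs or 27.0 CPM against 202 CPM (WT), a ratio of -2.91 (-3.78 to -2.16), and 62 UMIs or 62.6 CPM against 166 CPM (FKO), a ratio of -1.40 (-1.79 to -1.04). FEV, the serotonergic selector gene, had 252 against 1621 CPM (-2.68) and 465 against 930 CPM (-1.0). GATA3, an upstream serotonergic factor, stood at -2.70 and -0.57, and DDC, the decarboxylase that makes serotonin, at -2.70 and -1.22. LMX1B, another serotonergic factor, had 0 UMIs in cycling cells labelled WT against 33.1 CPM, a log2 ratio of -2.52 or lower when 0 is taken as 3 UMIs.

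All 27 compared pan-neuronal genes were lower in the library labelled WT (median -2.42), but 5 of 28 in the library labelled FKO (median -0.84). STMN2, a microtubule regulator of growing axons, had 578 against 4464 CPM (WT), a ratio of -2.95 (-3.12 to -2.79), and 2819 against 5762 CPM (FKO), a ratio of -1.03 (-1.09 to -0.98). SYT1, the calcium sensor of synaptic vesicles, stood at -2.57 and -1.08, GAP43 of growth cones at -2.09 and -0.83 and the neuronal hydrolase UCHL1 at -1.24 and -0.61. The FKO count changed with the setting. It was 24 with a mean of per-cell CPM in place of sums, 16 without the doublet-marked cells, and 1 with at least 4 of the 6 genes required, where lower genes over the whole table numbered 1460, 855 and 492 beside 557 as reported.

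Droplets also catch RNA shed by other cells, so the share of cells with a UMI was set beside that of a cell type that should lack the gene. Thinned to 2000 UMIs, a TPH2 UMI was found in 4 of 26 cycling cells labelled WT (15.4%, 4.36% to 34.9%) and 3 of 59 labelled FKO (5.08%, 1.06% to 14.1%), against 29.4% and 24.6% of non-cycling cells. Collagen cells, which should lack TPH2, gave 3.33% (0.0844% to 17.2%) and 15.9% (8.72% to 25.6%), and had median depths of 19708.5 and 10987.5 UMIs before thinning. Doublet scores marked 2 of these 30 and 20 of these 82 collagen cells (24.4% of the latter). The cycling share was below the collagen share for FKO and within its interval for WT, where it was 4% at 5000 UMIs. In non-cycling cells with under 75 pan-neuronal UMIs per 10000, a group chosen for few neuronal transcripts, the share with a TPH2 UMI was lower than in cycling cells, at 0 of 68 (WT), which allows up to 4.41%, and 2 of 100 (FKO, 0.243% to 7.04%), with intervals that overlapped those of cycling cells. In the library labelled FKO the order of cycling cells and background thus depended on which cells stood for the background. Each thinned share came from a single random draw of UMIs, and its interval leaves out the spread between draws. At full depth the 26 cycling cells labelled WT held 14 TPH2 UMIs, in 8 cells. In the draw at 2000 UMIs their share was above both backgrounds. At 5000 UMIs its 4% lay between 6.67% in collagen cells and 1.67% in the non-cycling cells with few neuronal transcripts. FEV gave 46.2% and 40.7% in cycling cells, 90.6% and 77.6% in non-cycling cells and 23.3% and 46.3% in collagen cells.

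**Figure D2:**
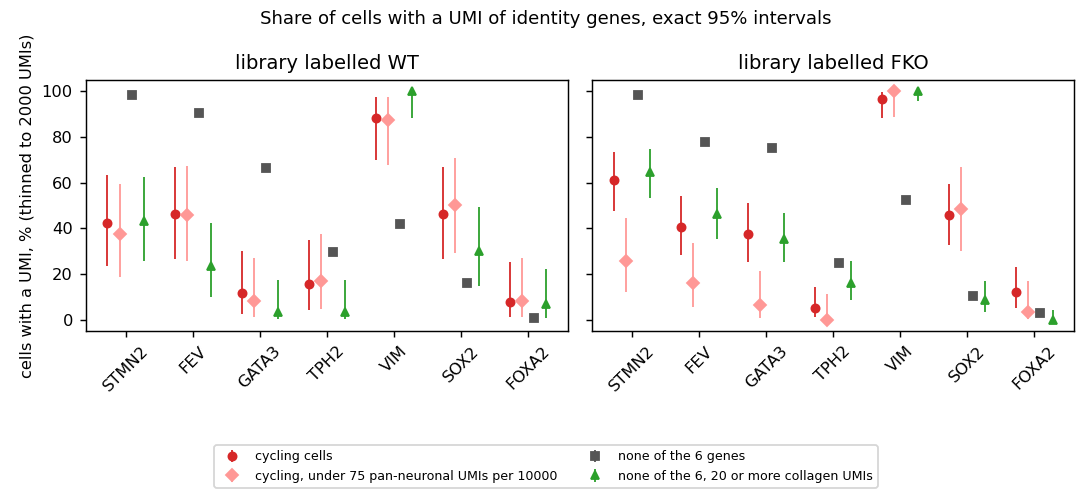
Share of cells with a UMI of 7 genes after thinning to 2000 UMIs, with exact 95% intervals, for cycling cells, those of them under 75 pan-neuronal UMIs per 10000, non-cycling cells, and non-cycling cells with 20 or more collagen UMIs. STMN2, FEV, GATA3 and TPH2 were less often detected in cycling than in non-cycling cells of both libraries, and VIM, SOX2 and FOXA2 more often.

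The cycling cells were not of 1 kind in neuronal content. The pan-neuronal genes made up a median of 33.3 UMIs per 10000 in cycling cells labelled WT (13.2 to 209) and 54.4 in those labelled FKO (10.8 to 316), against 206 and 298 in non-cycling cells. The values left a gap between 55.3 and 85.7 in cells labelled FKO and, in cells labelled WT, between 68.1 and 97.2. A limit of 75 was set after these values were seen. 24 of 26 cells labelled WT and 32 of 61 labelled FKO lay under it and are called neuron-poor, 2 and 29 lay above it and are called neuron-rich, and 2 and 1 lay within 60 to 90. Of the cycling cells labelled FKO 47.5% (34.6% to 60.7%) were neuron-rich. In non-cycling cells 2.25% and 2.69% were under the limit.

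The neuron-rich cells labelled FKO were deep, with a median of 16492 UMIs against 8835.5 in the neuron-poor, and doublet scores marked 9 of 29 (31.0%) against 0 of 32. They held 676792 of the 990165 UMIs of all cycling cells labelled FKO and so weighed most in its sums. Whether they were doublets of a dividing cell and a neuron was not tested beyond these scores. TPH2 was detected in 17 of the 29 and SOX2 in 26, and 16 had both. Among the 32 neuron-poor cells TPH2 was detected in 2, SOX2 in 26 and NES in 28.

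Cell cycle content differed along with neuronal content. Summed S phase genes reached a median of 44.6 UMIs per 10000 in cycling cells labelled WT, 49.7 in the neuron-poor and 13.2 in the neuron-rich cells labelled FKO, against 6.88 and 7.60 in non-cycling cells. Summed G2/M genes reached 82.8, 66.3 and 50.9, against 26.3 and 26.9. 24 of 26 cells labelled WT were above the 95th percentile of non-cycling cells in both sums, as were 22 of 32 neuron-poor and 10 of 29 neuron-rich cells labelled FKO. 12 neuron-rich and 2 neuron-poor cells labelled FKO passed it in G2/M genes alone, 2 cells labelled WT and 5 labelled FKO in S phase genes alone, and 5 neuron-poor and 5 neuron-rich cells labelled FKO in neither.

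**Figure D3:**
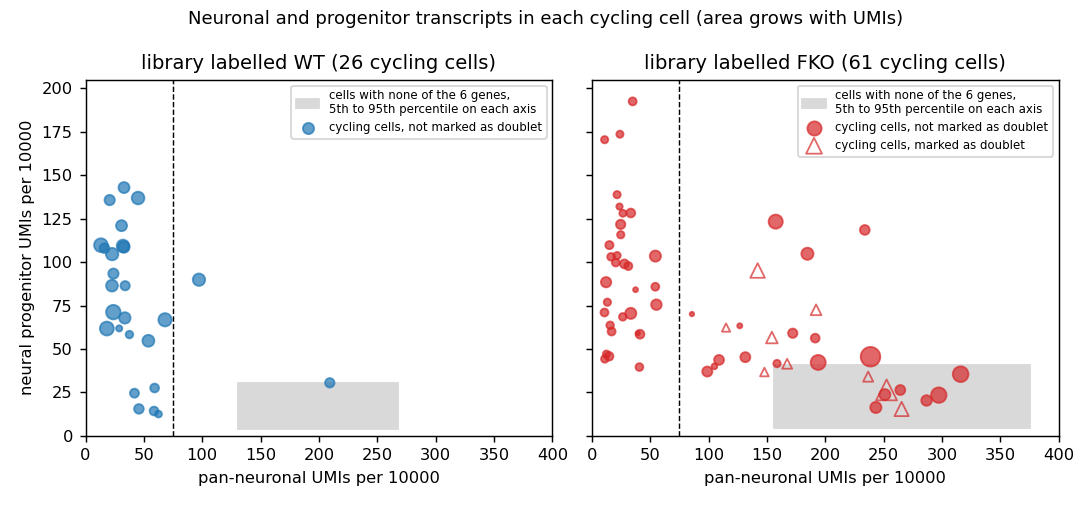
Pan-neuronal (x axis) and neural progenitor (y axis) UMIs per 10000 in each cycling cell of both libraries, with area growing with the UMIs of the cell, open triangles for doublet-marked cells, a dashed line at 75 and a grey box for the 5th to 95th percentile of non-cycling cells. The library labelled WT had 2 cells right of the line and the library labelled FKO 29, among them all 9 marked cells.

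The comparison with non-cycling cells was repeated with neuron-rich cells left out. Over all genes, 1517 of 9408 were higher (16.1%) and 2168 lower (23%) in neuron-poor cycling cells labelled WT against non-cycling cells, and 2259 of 10892 higher (20.7%) and 2346 lower (21.5%) in those labelled FKO. The neuron-poor cells were chosen by their pan-neuronal UMIs, so the lower level of those genes (28 of 28 in cells labelled FKO, median -3.68, STMN2 at -4.86) follows from the choice and is no result. Serotonergic genes, which mark a kind of neuron and so are not independent of that choice, were lower in 15 of 16 (median -3.71), with FEV at -3.94 and TPH2, with 2 UMIs, at -4.70 (-7.74 to -2.85). S phase genes were higher in 38 of 43 (median 3.99) and neural progenitor genes in 19 of 25 (median 3.52), with NES at 3.52 and VIM at 2.64. CDKN1C, near level over all cycling cells labelled FKO, stood at -1.53 (-1.90 to -1.18).

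Non-cycling cells are mostly neurons, so the cycling cells were also set beside non-cycling cells with at least 2 SOX2 UMIs and under 5 collagen UMIs (1506 WT, 952 FKO). Over all genes, 1352 of 9226 were higher (14.7%) and 2048 lower (22.2%) in the library labelled WT, and 1176 of 10630 higher (11.1%) and 448 lower (4.21%) in the library labelled FKO. The SOX2 level was matched by this choice, at 353 against 325 CPM and 319 against 347 CPM. S phase genes were higher in 33 of 40 and 36 of 43 and G2/M genes in 43 of 48 and 41 of 48, and all of these were also higher over the whole of the non-cycling cells. TPX2 stood at 7.04 and 6.35. The SOX2 cells themselves were largely neuronal, with STMN2 at 4506 and 5398 CPM, and 17 of 23 and 15 of 22 neural progenitor genes were still higher in cycling cells.

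The neuron-poor cycling cells were also set beside non-cycling cells under the same pan-neuronal and collagen limits, 76 labelled WT and 107 labelled FKO. Median depths, cycling against non-cycling, were 20049.5 against 10005 UMIs (WT) and 8835.5 against 8480 (FKO), and the part of depth was not tested. Against these non-cycling cells, 1241 of 9035 genes were higher (13.7%) and 1003 lower (11.1%) in neuron-poor cycling cells labelled WT. In those labelled FKO 1314 of 10371 were higher (12.7%) and 1058 lower (10.2%). S phase genes were higher in 39 of 42 and 40 of 43 and G2/M genes in 46 of 48 and 45 of 48. Of the S phase genes 33 and 36, and of the G2/M genes 44 and 41, were also among those higher in all cycling over all non-cycling cells. Neural progenitor genes were near level, with medians of 0.26 and 0.24 and VIM at -0.10 and -0.30, SOX2 at 0.36 and 0.68 and NES at 0.29 and 0.26.

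Floor plate genes were lower in cycling than in non-cycling neuron-poor cells, 9 of 14 (WT, median -1.92) and 8 of 13 (FKO, median -1.23). Members under 10 CPM in the cycling cells were compared only through the non-cycling cells. Their direction followed from that limit, so these counts and medians are in part set by it. SPON1 was over 10 CPM on both sides. SPON1 had 23.0 against 260 CPM (-3.50, -4.53 to -2.64) in the library labelled WT and 179 against 356 CPM (-1.0, -1.43 to -0.58) in the library labelled FKO. SULF1 stood at -1.76 and -1.78, and FOXA2 at -0.35 (-1.51 to 0.72) and -1.01 (-1.59 to -0.48). CDKN1A, the inhibitor p21 induced by p53, had 12.5 against 64.0 CPM (-2.35, -3.86 to -1.14) and 47.9 against 120 CPM (-1.32, -2.21 to -0.54). CCND2, a G1 cyclin, stood at -1.04 and -1.0. Of the p53 response list 6 of 15 (WT) and 3 of 15 (FKO) were lower, among them GADD45A in both.

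The libraries were then compared with each other, FKO over WT, within cycling cells. The median log2 ratio of all genes was 0.61, and calls were made after this shift was taken off, with 2013 of 10396 genes higher (19.4%) and 1834 lower (17.6%). Without that step 3795 were higher and 565 lower. FOXA2 had 108 against 21.2 CPM, a ratio of 2.35 (1.45 to 3.40), or 2.2 in neuron-poor cells, beside 2.36 (2.18 to 2.55) in non-cycling cells. A limit of 5% on mitochondrial UMIs kept 5 cycling cells labelled WT and 20 labelled FKO, and this ratio was then -0.19. With that limit 1 UMI is 9.74 CPM (WT) and 1.98 CPM (FKO), so the ratio rests on few UMIs. It is not a bound from 0 UMIs (WT), since such a bound was kept only when it was not below 0.

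Relative to the shift, cell cycle lists stood lower in cycling cells labelled FKO, with 35 of 48 G2/M genes (median -1.33), 20 of 21 kinetochore genes (median -1.98) and 25 of 43 S phase genes (median -1.16) lower, and pan-neuronal genes stood higher in 20 of 28 (median 1.61). Between neuron-poor cells alone, where 1843 of 9836 genes were higher (18.7%) and 1556 lower (15.8%) around a shift of 0.47, G2/M genes were lower in 12 of 48 (median -0.51), kinetochore genes in 11 of 21 (median -1.04) and S phase genes in 3 of 43 with 8 higher (median -0.08). The pan-neuronal median between neuron-poor cells (-0.78) was set by the limit on those genes and is no result. TYMS had 281 against 601 CPM in neuron-poor cells, a ratio of -1.10 (-1.46 to -0.75).

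**Figure D4:**
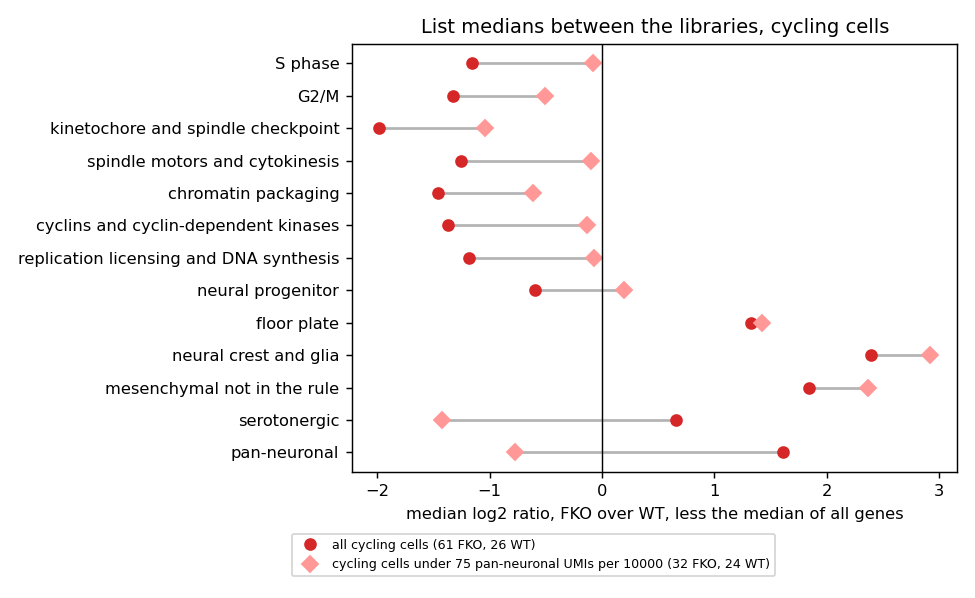
Median log2 ratio of 13 gene lists, FKO over WT, with the median over all genes subtracted, for all cycling cells (circles, 61 FKO and 26 WT) and for those under 75 pan-neuronal UMIs per 10000 (diamonds, 32 FKO and 24 WT). Kinetochore genes moved from -1.98 to -1.04, while floor plate (1.32 and 1.42, but -0.27 without the collagen limit, not drawn) and neural crest and glia (2.39 and 2.92) stayed above 0; the move of pan-neuronal genes (1.61 to -0.78) follows from the limit on them.

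The floor plate comparison turned with the collagen limit. Of this list 7 of 12 genes were higher and 1 lower in all cycling cells labelled FKO, relative to the shift, and 7 of 13 were higher in neuron-poor cells. With cells over the collagen limit let in (94 FKO and 49 WT cycling cells, an alternative added after the data were seen), 3 of 14 were higher and 5 lower, beside 18.9% and 15.1% of all genes. SPON1 had 174 against 23.1 CPM (2.91, 2.07 to 3.89) with the limit, beside -0.08 in non-cycling cells, and 147 against 148 CPM (-0.0088, -0.31 to 0.29) without it. It stood at 0.021 with the limit and at most 5% mitochondrial UMIs, the same value as SHH. There 1 UMI of the 5 cycling cells labelled WT is 9.74 CPM, and the value may be a lower bound with 0 UMIs taken as 3. SHH stood at 1.14 (-0.31 to 2.90) with the limit and at -1.34 (-2.11 to -0.60) without it. Among non-cycling cells rich in collagen UMIs, thinned to 5000 UMIs, 16 of 30 (WT, 53.3%) and 0 of 71 (FKO, which allows up to 4.23%) had an SHH UMI. FOXA2 stood at 2.35 with the limit and 2.15 without it.

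Most genes of the neural crest and mesenchymal lists were higher in cycling cells labelled FKO, relative to the shift, also in neuron-poor cells and without the collagen limit. Of the genes of neural crest and glia 8 of 9 were higher, 10 of 10 in neuron-poor cells, and 9 of 9 without the limit. Of the mesenchymal genes outside the rule 8 of 13, 9 of 14 and 11 of 16 were higher, with LGALS1 at 2.46 over all cycling and 2.94 in neuron-poor cells. Some members of both lists reached 10 CPM in 1 library only, such as PRRX1 with 54 UMIs (54.5 CPM, FKO) against 0 (WT). These counts thus follow in part from that limit. PRRX1 was also higher in non-cycling cells labelled FKO, with 647 UMIs against 4 (WT), a ratio of 7.73 (6.37 to 9.61), so its difference was not particular to cycling cells. The smooth muscle genes ACTA2 and TAGLN were lower in all cycling and in neuron-poor cells relative to the shift. Before the shift was taken off TAGLN stood at -1.75, at -0.57 (-1.16 to 0.00062) in neuron-poor cells, and at 0.70 with at most 5% mitochondrial UMIs. The last value rests on 5 cycling cells labelled WT and may be a bound from a count of 0. S100B, a calcium-binding protein of glia, had 269 against 2 UMIs, or 272 against 3.85 CPM (6.14, 4.27 to 9.19), beside 3.09 in non-cycling cells. The S100B ratio was 7.71 in neuron-poor cells, 4.48 without the collagen limit and 4.52 with at least 2 of the 6 genes. It was 2.88 when thinned to 2000 UMIs and 2.63 with at most 5% mitochondrial UMIs. SOX10, the neural crest and glial factor, had 54 UMIs in cycling cells labelled FKO and 0 in those labelled WT, at least 3.24 higher on the log2 scale when 0 is taken as 3 UMIs. Within the library labelled FKO, SOX10 stood at 3.59 (3.14 to 4.02), S100B at 3.60 and the crest factor FOXD3 at 2.82, cycling over non-cycling. SOX10 had 4.52 CPM in non-cycling cells labelled FKO and was compared only through the cycling cells. Its direction there followed from the limit of 10 CPM, and its ratio is a description.

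A SOX10 UMI was seen in 19 of 61 cycling cells labelled FKO (31.1%, 19.9% to 44.3%), against 1.93% of non-cycling cells of that library, at median depths of 11919 and 7016 UMIs. Thinned to 2000 UMIs the shares were 7 of 59 (11.9%, 4.91% to 22.9%) and 0.673%, beside 15 of 100 non-cycling neuron-poor cells (8.65% to 23.5%), whose range overlaps that of the cycling cells. Of the 19 cells, 12 were neuron-poor and 7 neuron-rich. In the library labelled WT SOX10 was at 0 in 26 cycling and 5923 non-cycling cells, which allows a share of cells with a UMI of up to 11.5% in the former (3 counts of 26) and does not show that the gene was silent. 14 of the 19 cells also had a UMI of PRRX1 or TWIST1, factors of crest-derived mesenchyme, 15 had SOX2 and 2 had FOXA2. Mesenchymal genes outside the rule were higher in 9 of 12 genes in the library labelled FKO, with the fibronectin gene FN1 at 2.76 and the galectin gene LGALS1 at 3.19, although cells with 5 or more UMIs of the 5 fibroblast genes had been left out. For the library labelled WT 5 of 8 were higher and 2 lower, with LGALS1 at 3.61, the smooth muscle gene TAGLN at 6.04 and COL6A1 at -1.84.

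Genes were also named by rule, whether on a list or not, from those with at least 50 CPM on the higher side in both libraries. The 15 genes highest in both libraries were DLGAP5, PBK, CEP55, RRM2, CCNB2, NUF2, PIMREG, H1-5, GTSE1, SGO1, CDK1, CDCA8, KIF4A, KIF11 and PCLAF, of which PBK, CEP55 and PCLAF were on none of the lists. All 15 stood at or under 2.32 CPM in non-cycling cells and were named only through the cycling cells. Their direction followed from the CPM limit, and their ratios are a description. DLGAP5, which stabilizes kinetochore fibres, had 254 against 0.201 CPM (WT) and 120 against 0.116 CPM (FKO), ratios of 10.30 (9.55 to 11.15) and 10.02 (8.93 to 11.36). PBK, a mitotic kinase, stood at 10.09 and 9.69, and CEP55, which acts in the last step of cytokinesis, at 9.80 and 8.96. PCLAF, the PCNA-associated factor, had 347 against 2.03 CPM and 177 against 2.32 CPM, ratios of 7.42 and 6.25.

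The 15 lowest in both libraries were SLC17A8, AKR1C2, AKR1C1, CACNA2D1, GRIA2, LUZP2, ZFHX4-AS1, PAK5, TPH2, CDYL2, RAPGEF5, TMEM200A, GRIK2, CHGB and SPOCK3. SLC17A8, the vesicular glutamate transporter VGLUT3 of a subset of SNs, had 30.8 against 168 CPM (WT) and 26.3 against 123 CPM (FKO), ratios of -2.45 (-3.26 to -1.75) and -2.23 (-2.85 to -1.68). The AMPA receptor subunit gene GRIA2 stood at -3.75 and -1.52, the kainate receptor subunit gene GRIK2 at -2.58 and -1.34, and CHGB, a granin of secretory granules, at -2.92 and -1.34. AKR1C1 and AKR1C2, aldo-keto reductases whose near-identical sequences make the split of reads uncertain, stood at -2.34 and -3.43 (WT) and at -1.54 and -1.88 (FKO).

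By the same kind of rule, genes were named whose FKO over WT ratio differed most between cycling and non-cycling cells. DLK1, a secreted and membrane-bound relative of Notch ligands, had 210 UMIs or 212 CPM in cycling cells labelled FKO and 2 UMIs or 3.85 CPM in those labelled WT, a ratio of 5.78 (3.91 to 8.84), beside 0.43 (0.37 to 0.49) in non-cycling cells and 6.24 in neuron-poor cycling cells. PLS3, an actin-bundling protein, stood at 2.70 (2.03 to 3.46) beside -0.95. NRXN2, CYBA, GAS7, PPFIA2 and GALNT13, each with 1 UMI in cycling cells labelled WT, stood at 4.77 to 5.61 (in neuron-poor cells labelled FKO PPFIA2 and GALNT13 had 2 UMIs each), and SHOX2 at 2.68 beside -1.15 but at 0 UMIs against 5 in neuron-poor cells. PRSS35, a serine protease-like protein, went the other way, with 8 against 95 UMIs or 8.08 against 183 CPM (-4.50, -5.75 to -3.46), beside 0.34 in non-cycling cells, and the matricellular gene CCN1 stood at -3.36, MYL9 of contractile filaments at -2.12 and TAGLN at -1.75. In neuron-poor cells MYL9 stood at -0.84 (-1.80 to 0.045) before the shift was taken off, a range that, like that of TAGLN, includes 0. Both ranges lay below the shift of 0.47 in these cells. Relative to it MYL9 stood at -1.31 and TAGLN at -1.04. The rule also named PMP2, PRRX1, SOX10 and APLNR as lowest, but these had 0 UMIs in cycling cells labelled WT and 54 to 66 in those labelled FKO, so that their ratio was bounded from below and no lower ratio was shown.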

How the data were processed

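Serotonin neurons were profiled with the 10x Genomics 3' kit in 1 library per condition. The deposited files hold UMI counts per gene and barcode, which the authors made with Cell Ranger on GRCh38 (7.1.0 in the file headers, 7.0 in the processing notes). Nothing was normalized before deposition.

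Here a barcode was kept when it had 1000 or more UMIs, 500 or more genes and no more than 10% mitochondrial UMIs. Cycling cells had at least 3 of 6 rule genes and fewer than 5 UMIs of 5 fibroblast genes. The cells and gene lists were chosen with earlier results of these data known. UMIs were summed over the cells of a group, scaled to CPM and compared among genes with at least 10 CPM on either side, and a gene was called past 2-fold. A count of 0 was taken as 3 for a bound. Intervals of ratios are conditional binomial and those of shares Clopper-Pearson, both at 95%, and they cover counting error only. Counts are by Ensembl gene, and close copies and overlapping genes may share reads. Scripts were tested on data with known answers.

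Doublets were scored with Scrublet in scanpy 1.11.5. Its own threshold marked 0 barcodes in both libraries and was not usable, so the highest scores were marked at 0.8% per 1000 barcodes (977 WT, 620 FKO). Shares were also computed after thinning each cell to 2000 or 5000 UMIs, with a single random draw at each depth. Python 3.11.15, numpy 2.4.6, scipy 1.17.1, pandas 2.3.3 and matplotlib 3.10.9 were used.

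Genes were named by rule: the 6 rule genes; the 2 to 4 genes of each list with the highest CPM in cycling cells together with members against the rest, to which key regulators of each list were added after their values were seen; the 15 highest and 15 lowest by the smaller of the 2 libraries' ratios, with at least 50 CPM; and the 8 highest and 8 lowest by the FKO over WT ratio in cycling less that in non-cycling cells. Alternatives changed the number of rule genes, the mitochondrial, UMI, collagen and CPM limits, doublets, pooling, scaling and depth. A limit of 75 pan-neuronal UMIs per 10000 was added after seeing the data. Some genes are not reported here.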

Additional observations from a re-analysis of the deposited data

Results flagged for a closer look

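The collagen limit left out 23 cells labelled WT and 33 labelled FKO that had at least 3 of the 6 rule genes, a signal outside the cells described. They had medians of 26283 and 14638 UMIs, and TPH2 was detected in 8 and 12 of them and SOX2 in 22 and 22. A further 3 barcodes labelled WT and 4 labelled FKO had at least 3 of the 6 genes but over 10% mitochondrial UMIs.

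EGR1, an immediate early gene, moved in opposite directions in the libraries. Cycling over non-cycling, it stood at -2.02 (-5.07 to -0.17) in the library labelled WT, with 2 UMIs in cycling cells, and at 1.60 (1.0 to 2.15) in the library labelled FKO, with 28 UMIs. The difference was not tested.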

How the results depend on the processing

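Of 348 alternative values of 37 results, 282 stayed within the stated limits of the reported value, 65 moved and 1, the floor plate median between FKO and WT, reversed. Of 4061 values of the single genes that were recomputed, which are not all those named, 3351 stayed, 702 moved and 8 reversed. No paired analysis was possible because each condition has 1 library, and for the same reason no replicate could be left out. With 1 library per condition and 26 and 61 cells, genes under about 10 CPM rest on a handful of UMIs.

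The share of cycling cells labelled FKO was 1.20% with at least 2 of the 6 genes, 1.24% without the collagen limit, 0.423% for neuron-poor cells and 0.483% after thinning to 2000 UMIs. That of cells labelled WT was 0.767% without the collagen limit and 1.39% with at most 5% mitochondrial UMIs, which left 360 kept cells and 5 cycling.

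With at least 50 CPM required, 510 genes were higher and 664 lower for WT, 342 and 149 for FKO, and 809 and 566 between FKO and WT. With any gene over the floor of 3 UMIs, 3236 were higher (WT) and 4058 higher and 1260 lower (FKO). Thinned to 2000 UMIs, 2358 were higher and 882 lower (WT), 2118 and 1509 (FKO), and 877 and 850 between FKO and WT. Without the median taken off, FKO over WT gave 3795 and 565. Lower genes labelled FKO numbered 233 with at least 2 of the 6 genes, 855 without doublet-marked cells and 1460 with a mean of per-cell CPM, and lower genes labelled WT 1276 with at most 5% mitochondrial UMIs. Neuron-poor cells labelled FKO gave 2259 higher and 2346 lower. Against SOX2 cells they gave 2151 and 2284, and 719 were lower without doublet-marked cells.

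Of the lists, at least 50 CPM left 22 G2/M, 14 S phase, 8 neural progenitor and 5 lower serotonergic genes labelled FKO, and 18 S phase, 8 neural progenitor and 2 floor plate genes labelled WT. Floor plate genes numbered 11 (FKO) with any gene over the floor, and 10 (WT) without the collagen limit and 2 with non-cycling cells drawn to match UMIs. Between FKO and WT, 3 floor plate genes were higher and 5 lower without the collagen limit, against 7 and 1, and their median was -0.27 against 1.32, with SHH at -1.34 and SPON1 at -0.0088. The median of neural crest and glia was 3.91 without the limit and 2.92 in neuron-poor cells, and the mesenchymal median 2.37 in neuron-poor cells. Lower pan-neuronal genes labelled FKO numbered 1 with at least 2 of the 6, 1 with at least 4, 1 with at most 5% mitochondrial UMIs, 12 without the collagen limit, 16 without doublet-marked cells, 22 thinned, 24 with per-cell means and 28 in neuron-poor cells. Lower serotonergic genes numbered 1, 5 and 2 under the first 3 of these settings and 15 in neuron-poor cells, and in the library labelled WT 6 with at most 5% mitochondrial UMIs and 7 thinned.

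The share with an FEV UMI labelled FKO was 16.1% in neuron-poor cells and 64.3% at 5000 UMIs. That of TPH2 was 0 in neuron-poor cells labelled FKO and 4% at 5000 UMIs in those labelled WT. With at most 5% mitochondrial UMIs, FOXA2 between FKO and WT was -0.19, TAGLN 0.70, GADD45G labelled WT -1.76 and NKX2-2 labelled FKO -0.37. At that limit 1 UMI of the cycling cells is 9.74 CPM (WT) and 1.98 CPM (FKO), and these ratios, other than that of FOXA2, may be bounds from a count of 0. NKX2-2 was -0.078 when thinned. SHOX2 between FKO and WT was at most -0.12 in neuron-poor cells, where FKO had 0 UMIs. The cause was not tested for any of these.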

Other observations

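Of 10 genes listed for pluripotent cells, 1 (WT) and 2 (FKO) reached 10 CPM on either side, in each case through the cycling cells, so that their direction followed from this limit and their values are a description. DPPA4, a chromatin protein known from pluripotent cells, had 42.4 against 1.5 CPM (WT), a log2 ratio of 4.82 (4.10 to 5.49), and 11.1 against 0.546 CPM (FKO), a ratio of 4.35 (3.21 to 5.37). It was detected in 12 of 26 and 8 of 61 cycling cells, against 1.37% and 0.380% of non-cycling cells. L1TD1, another gene of pluripotent cells, had 0 UMIs in WT and 10 in FKO cycling cells. Among the rest, DNMT3B had 1 UMI (WT, -1.51, -6.82 to 0.98) and 9 UMIs (FKO, 0.35, -0.79 to 1.28), and LIN28A had 0 in both. Of 18 glycolysis genes 6 were lower (WT), and 1 of 18 was higher (FKO). The neuronal enolase gene ENO2 stood at -1.82 and -0.51. Of 13 ribosome biogenesis genes 1 was higher and 1 lower in each library. BAX, a promoter of apoptosis, stood at 1.22 and 0.93.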
